A study of Drosophila melanogaster with 2 samples.

Results

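The genes described here encode the proteins of the mitochondrial ribosome of Drosophila melanogaster, and the measurement is where the tagged DNA-binding protein CG4854 was recovered near their transcription start sites (TSSs). Members were chosen by symbol alone, as protein-coding genes named mRpL or mRpS followed by a digit, and 73 of 13945 protein-coding genes on the 6 chromosome arms met that rule. They comprised 47 large subunit (mRpL) and 26 small subunit (mRpS) genes. Chromatin was immunoprecipitated with an anti-GFP antibody from whole embryos of both sexes, aged 0 to 24 hours, of a stable transgenic line that expresses CG4854 with GFP at its C terminus. The 2 biological replicates, numbered 2 and 3, formed 1 group, so there was no other condition to compare. The labels do not give the promoter of the transgene or say whether untagged CG4854 was also present. Mixed embryos of this age range hold many cell types, and a peak does not show which cells carried it.

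Mitochondrial ribosomes translate the few proteins encoded in mitochondrial DNA, which are core parts of the respiratory chain and ATP synthase. All of their protein subunits are encoded in the nucleus, made in the cytosol and imported. Many subunits descend from bacterial ribosomal proteins and keep the bacterial number, while those with higher numbers are mostly later additions. CG4854 belongs to the ZAD family of zinc finger proteins, insect proteins that bind DNA.

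A member was counted as called where a peak that passed the authors' irreproducible discovery rate (IDR) threshold had its summit within 500 bp of any of its TSSs. Of the 73 members 20 were called, or 27.4% (exact Clopper-Pearson 95% interval 17.6 to 39.1%), against 15.8% of all protein-coding genes. Intervals here cover counting error over genes only, and neighbouring genes can owe their count to 1 common peak. The IDR set held 3106 peaks with signals from 95.2 to 1775.6 and a median of 146, all of which were the strongest 3106 entries of the pooled list. Signal is the authors' peak score, used here to describe and rank peaks within a list. The pooled, replicate 2 and replicate 3 lists each held 30000 candidates, most of them below the IDR threshold.

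Weaker entries were common at these promoters. Candidates in the pooled list lay at 57 members (78.1%, interval 66.9 to 86.9%), against 50.3% of all genes. The replicate 2 list held a candidate at 58 members (79.5%), against 50.1% of all genes, and the replicate 3 list at 61 members (83.6%), against 52.6%. Both replicates held one at 50 members (68.5%, interval 56.6 to 78.9%), against 42.9% of all genes. Only 4 members (5.48%), mRpL1, mRpL46, mRpS17 and mRpS34, had no candidate in any of the 3 lists, against 39.4% of all genes. The share of members with a candidate was thus higher than that of all genes in every list.

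Large subunit genes were called in 14 of 47 cases (29.8%, interval 17.3 to 44.9%) and small subunit genes in 6 of 26 (23.1%, interval 8.97 to 43.6%). Members with numbers used for bacterial proteins were called in 13 of 42 cases (31.0%) and those numbered above them in 7 of 31 (22.6%). These intervals overlapped widely. Candidates in both replicates lay at 36 of 47 large subunit genes (76.6%) and 14 of 26 small subunit genes (53.8%), again with overlapping intervals.

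**Figure D1:**
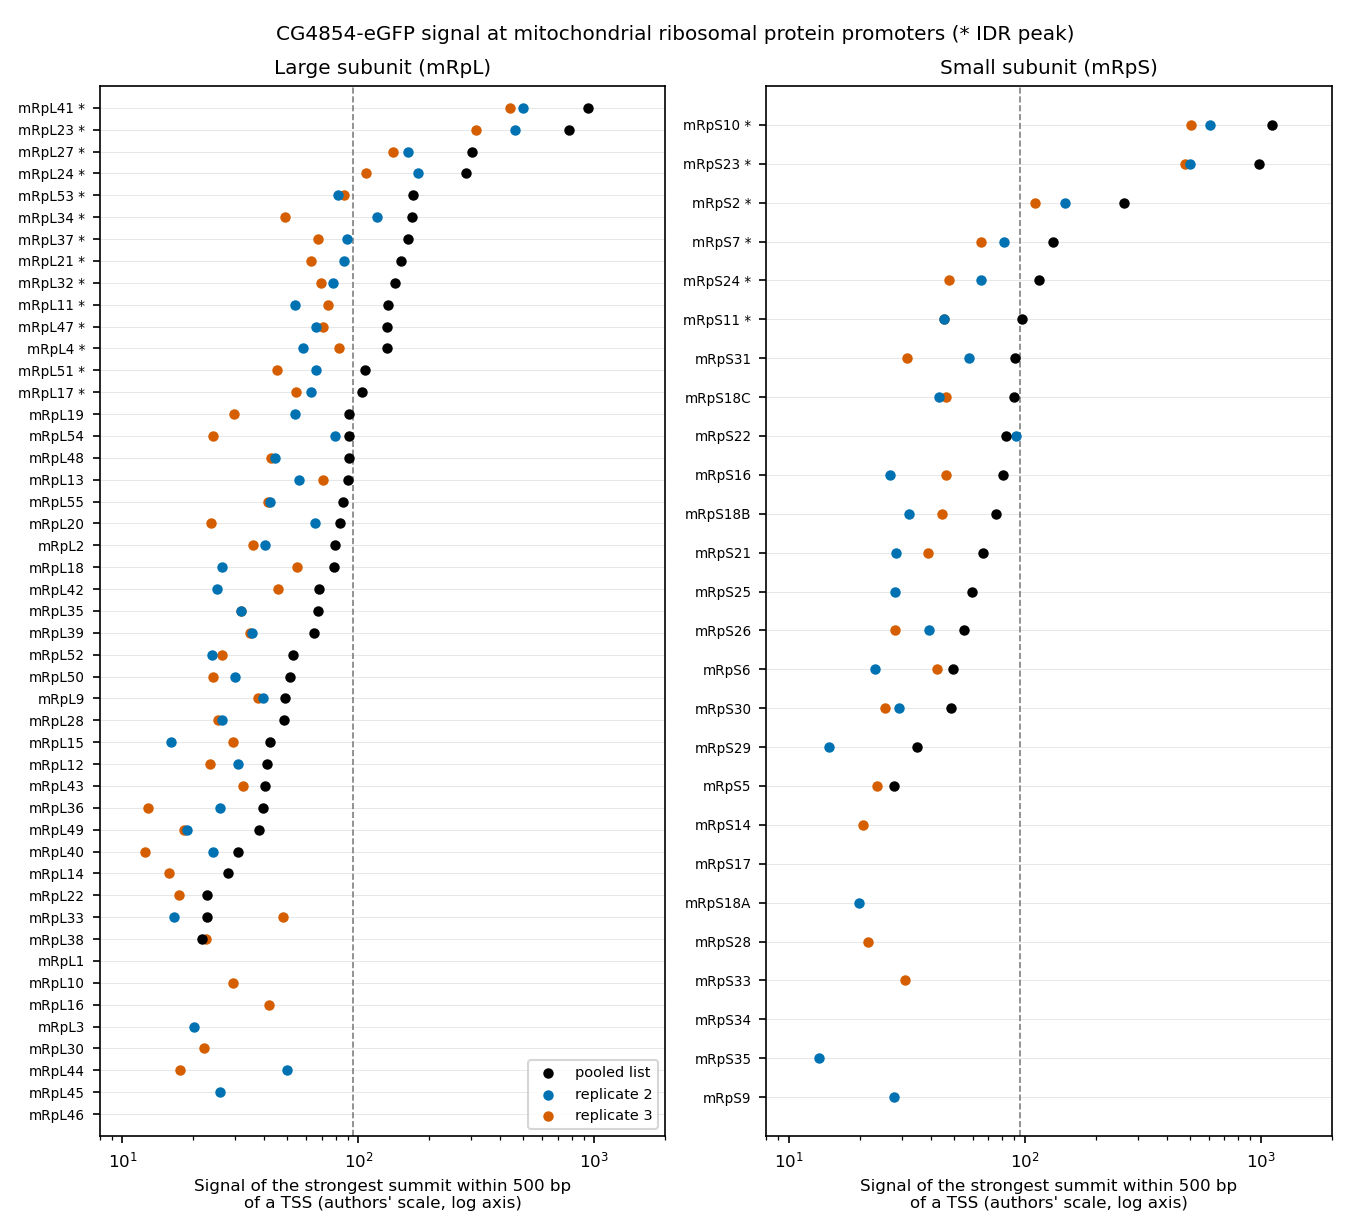
Signal of the strongest summit within 500 bp of a TSS for each of the 73 members, on a log axis in the authors' units, with large subunit genes on the left and small subunit genes on the right. Points stand for the pooled list, replicate 2 and replicate 3, asterisks mark the 20 members with an IDR peak, the dashed line marks 95.2, the lowest signal in the IDR set, and a row without points has no candidate; 4 members stand far above the rest.

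Signal was spread unevenly over the called members, and 4 of them, mRpS10, mRpS23, mRpL41 and mRpL23, were among the 100 strongest entries of the pooled list. The same count was not made over all called genes, whose median pooled signal, 155, was near the 157 of called members. At mRpS10, which belongs to the head of the small subunit, the pooled signal was 1116 (rank 9 of the pooled list), with 609.6 in replicate 2 (rank 10) and 505.8 in replicate 3 (rank 11). At mRpS23 it was 981 (rank 14), with 502 in replicate 2 (rank 17) and 478 in replicate 3 (rank 16). Both small subunit genes thus stood near the top of each of the 3 lists.

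At mRpL41, a large subunit gene, the pooled signal was 938 (rank 17), with 499 in replicate 2 (rank 18) and 441 in replicate 3 (rank 24). At mRpL23, which encodes a protein that in bacteria lies at the exit of the peptide tunnel, it was 778 (rank 36), with 461 in replicate 2 (rank 22) and 315 in replicate 3 (rank 64). The next member, mRpL27, had 304, so these 4 genes stood clearly apart from the other 16. The sequences around the strongest 2 summits, the plus or minus strand being that of the member, are shown because neither held any of the motifs searched here. All letters are therefore in lower case.

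mRpS10, chr3R:15229474-15229574, plus strand: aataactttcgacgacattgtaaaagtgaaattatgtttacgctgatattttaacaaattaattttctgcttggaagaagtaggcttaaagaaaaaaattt
mRpS23, chr2L:13835408-13835508, minus strand: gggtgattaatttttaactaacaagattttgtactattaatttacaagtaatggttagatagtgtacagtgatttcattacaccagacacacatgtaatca

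These sequences are from the RefSeq Release 6 genome, the assembly of dm6, and run 5′ to 3′ over 50 bp on each side of the summit. The summit of mRpS10 lay 141 bp upstream of its TSS and 116 bp upstream of the TSS of Art3, an arginine methyltransferase gene read in the opposite direction. The summit of mRpS23 lay 386 bp upstream of its own TSS and 106 bp upstream of that of CenG1A, an Arf GTPase-activating protein gene. Both peaks were thus nearer to the neighbour than to the member.

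A middle group of 3 members, mRpL27, mRpL24 and mRpS2, had pooled signals between 262.6 and 303.7. At mRpL27, whose bacterial counterpart lies beside the peptidyl transferase centre, the pooled signal was 304 (rank 366), with 162.5 in replicate 2 and 139.8 in replicate 3. At mRpL24 it was 287 (rank 409), with 179 in replicate 2 and 108 in replicate 3. At mRpS2 it was 263 (rank 495), with 148 in replicate 2 and 110.1 in replicate 3. All 3 had more signal in replicate 2 than in replicate 3. The neighbours across these peaks were CG15435 for mRpL27, betaggt-I, a prenyltransferase subunit gene, for mRpL24 and Mon1, an endosomal trafficking gene, for mRpS2.

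The remaining 13 called members had pooled signals between 97.1 and 170.4. The highest of these was mRpL53, with 170.4 in the pooled list, 81.6 in replicate 2 and 86.6 in replicate 3. It shared its TSS with CG33155 and faced AGO1, the Argonaute of the microRNA pathway. At mRpL34 the pooled signal was 168, with 119.5 in replicate 2 and 49.1 in replicate 3, the largest ratio between replicates among called members. Its neighbour was Dg, which encodes dystroglycan, a receptor for the extracellular matrix.

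Both mRpL37 and mRpS7 had 2 IDR summits each. At mRpL37, the stronger summit had 162 in the pooled list, 89.3 in replicate 2 and 67.7 in replicate 3, and lay 89 bp upstream of the TSS. Its other summit had 105.5, 60.9 and 45.4 in the same 3 lists. Both summits of mRpL37 thus had more signal in replicate 2 than in replicate 3.

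At mRpS7, which encodes a protein of the small subunit head, the summit 346 bp upstream had 131 in the pooled list and 65.1 in replicate 3, and lay 54 bp from the TSS of Cdk1, the mitotic kinase gene. The other, 137 bp upstream of mRpS7, had 120.3 in the pooled list and 42.9 in replicate 3. Replicate 2 had a single entry for both, with 81.2, 42 bp from the second summit and 167 bp from the first. Replicate 2 thus did not separate the Cdk1-side summit from the mRpS7-side one.

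Among the others, mRpL21 had 152 in the pooled list, 87.1 in replicate 2 and 62.8 in replicate 3, opposite rept, which encodes the chromatin remodelling ATPase Reptin. At mRpL32 the values were 143, 77.9 and 69.2 in the same order of lists, opposite qless, a gene of coenzyme Q synthesis. At mRpL11, the counterpart of a bacterial protein at the base of the ribosomal stalk, they were 134, 53.9 and 74.7, opposite HtrA2, a mitochondrial protease gene. The mRpL11 summit lay beyond the HtrA2 TSS, 96 bp inside that gene.

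Values for mRpL47 were 132.5 in the pooled list, 66.3 in replicate 2 and 70.8 in replicate 3, at a promoter that faces both CG8176 and Kdm3, a histone demethylase gene. Values for mRpL4 were 132 in the pooled list, 58.4 in replicate 2 and 83.1 in replicate 3, and no other coding gene lay within 500 bp of its summit. These 2 and mRpL11, mRpL53 and mRpS11 were the called members with more signal in replicate 3 than in replicate 2.

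The weakest called members were mRpS24, mRpL51, mRpL17 and mRpS11. At mRpS24, opposite the Wnt pathway gene Apc2, the signal was 115.1 in the pooled list, 65.3 in replicate 2 and 47.6 in replicate 3. At mRpL51, opposite Uba4, a gene of tRNA thiolation, it was 106, 65.9 and 45.3 in the same 3 lists. At mRpL17, opposite Tudor-SN, a nuclease-domain component of the RNA silencing complex, it was 104 in the pooled list, 62.7 in replicate 2 and 26.7 in replicate 3, where it ranked 9655. At mRpS11, a protein of the small subunit platform, opposite the nucleolar GTPase gene Ns1, it was 97.1, 45.3 and 45.5. Replicate 3 had a stronger entry for mRpL17 at −489 bp from the TSS, with 54.3 (rank 2888), so the entry that matched the IDR summit was not its highest there.

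The IDR threshold fell in a dense part of the members' range. Just below mRpS11, at 97.1, came mRpL19 with 91.3, mRpL54 with 91.1, mRpL48 and mRpS31 with 90.9 each and mRpS18C with 90.3, ranked 3298 to 3352 in the pooled list. Among these, mRpL54 had 79.8 in replicate 2 against 24.3 in replicate 3, while mRpL48 had 44.4 and 42.8 and mRpS18C 43.2 and 46.1 in replicates 2 and 3. The 37 members with a pooled candidate but no IDR peak ran from 21.7 to 91.3 with a median of 55. Of the 16 members with no pooled candidate, 12 had one in a replicate list. The same count was not made over all genes with no pooled candidate. A candidate in any of the 3 lists lay at 69 of 73 members (94.5%), against 60.6% of all genes.

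Nearly all summits at called members were found in each replicate's own list. The IDR threshold keeps peaks that agree between replicates, so this follows largely from how called members were defined. Of the 22 summits at members, 21 had a summit within 100 bp in replicate 2 and all 22 had one in replicate 3; 21 (95.5%) had both, against 2936 of 3106 IDR peaks at large (94.5%). The log2 ratio of replicate 3 to replicate 2 signal had a median of −0.24 (SD 0.40, n = 20 genes) at called members and −0.20 at all called genes. At the 50 members with a candidate in both replicates the median was −0.17 (SD 0.66), against −0.04 (SD 0.66, n = 5985 genes) at all genes. With a window of 250 bp the median at members was −0.04 (n = 40 genes). The median pooled signal was 157 at called members, against 155 at all called genes.

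**Figure D2:**
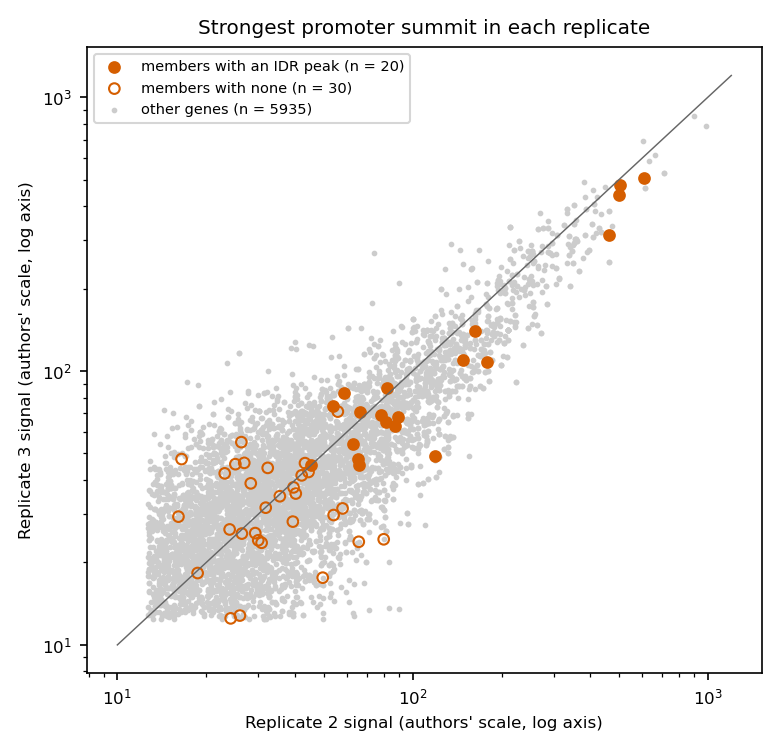
Signal of the strongest promoter summit in replicate 2 (horizontal) and replicate 3 (vertical), both on log axes in the authors' units, for the 20 called members (filled), 30 uncalled members (open) and 5935 other genes with a candidate in both replicates. The line marks equal signal, and 15 of the 20 called members have more signal in replicate 2.

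Most members had a neighbour transcribed in the opposite direction from the same promoter region. A gene was counted as head-to-head where another coding gene on the opposite strand started within 500 bp upstream. This was so for 53 of 73 members (72.6%, interval 60.9 to 82.4%), against 27.4% of all genes. Within 1000 bp the counts were 58 of 73 members (79.5%), against 36.2% of all genes. The neighbours named above served many different pathways, and none was itself a member.

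Among head-to-head genes, 18 of 53 members were called (34.0%, interval 21.5 to 48.3%), against 31.8% of all head-to-head genes. Among genes with no such neighbour, 2 of 20 members were called (10%, interval 1.23 to 31.7%), against 9.75% of all such genes. The share of members called was thus near that of other genes within each arrangement, although it was higher over all genes together. Pooled candidates lay at 44 of 53 head-to-head members (83.0%, interval 70.2 to 91.9%), against 74.0% of all head-to-head genes. They lay at 13 of 20 members with no such neighbour (65.0%, interval 40.8 to 84.6%). The share of all genes in that arrangement was not counted, and that of all genes together was 50.3%. Where each peak was given only to the gene with the nearest TSS, 8 members (11.0%) were called, against 11.6% of all genes. Which gene of a pair a peak acts on, if either, cannot be told apart from these lists.

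**Figure D3:**
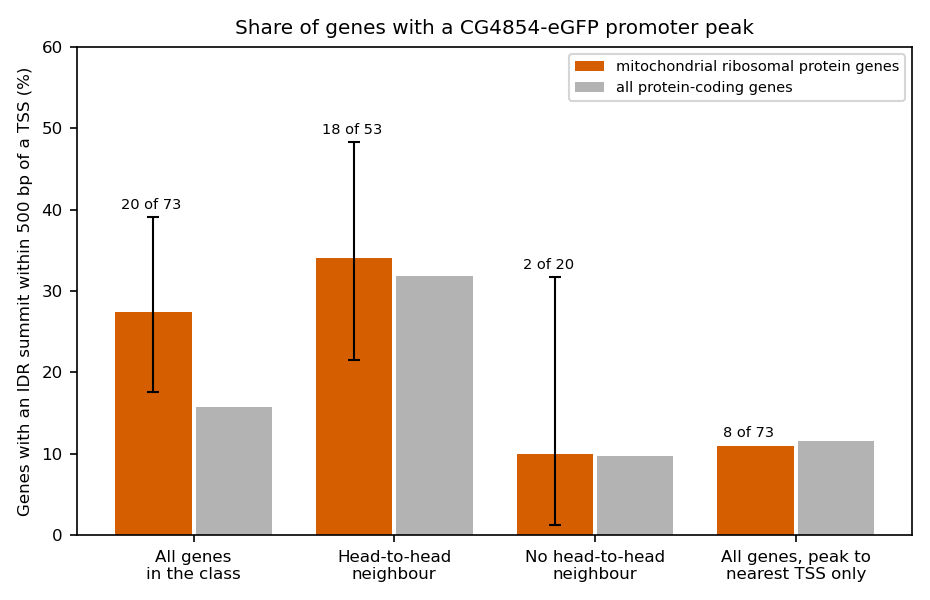
Percentage of genes called, that is with an IDR summit no more than 500 bp from a TSS, for members (left bar of each pair) and all protein-coding genes (right bar), over all genes, by head-to-head arrangement and with each peak given only to the nearest TSS. Error bars, drawn for the first 3 pairs, are exact 95% intervals for members; members exceed all genes in the first pair (27.4% against 15.8%) and are close to them in the other 3 pairs.

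Nearly all peaks at members were shared. Of the 22 IDR peaks at members, 20 (90.9%, interval 70.8 to 98.9%) also lay within 500 bp of the TSS of another coding gene, against 663 of 1687 promoter IDR peaks at large (39.3%). The share at large counts each peak once, however many genes it reaches. Of the 20 called members, 18 were head-to-head by the same distance, so the sharing in large part restates that arrangement. The share at head-to-head genes alone was not counted. All 20 lay at head-to-head pairs, and in 16 the summit fell between the start sites. Of the 22 summits, 8 had the member's TSS as the nearest. With peaks given only to the nearest TSS, 8 of 20 called members stayed called, against 1618 of 2202 called genes at large. Only mRpL41 and mRpL4 had a peak with no other coding gene in reach, and a long non-coding RNA gene, lncRNA:CR44463, lay near the mRpL41 summit.

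Most summits lay upstream of the member's TSS, in a share near that of other genes. Of the 22 summits, 20 (90.9%) were upstream, against 87.0% of the peak and gene pairs of other genes. The peak itself overlapped a TSS at 12 members (16.4%), against 9.49% of all genes. The median position was −143 bp (quartiles −217.5 and −74.5, range −386 to 64), where negative values are upstream of the member, against −122 bp over all such pairs. The exceptions were mRpL23, at 64 bp downstream, and mRpS11, at 13 bp downstream. Distance between start sites had a median of 239.5 bp (range 24 to 492) in the 18 called head-to-head members and 285 bp (range 20 to 499) in the 35 uncalled ones, so the ranges overlapped.

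**Figure D4:**
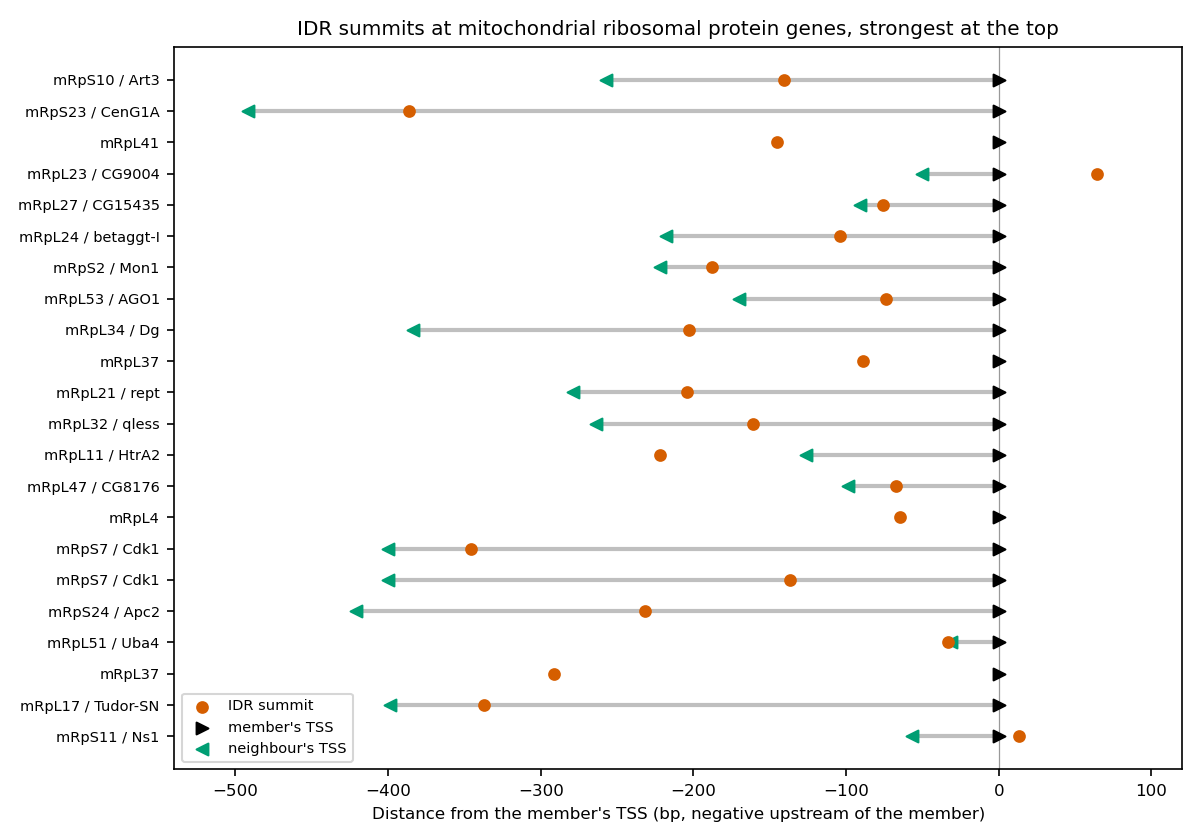
Positions of the 22 IDR summits at members, in bp from the member's TSS with negative values upstream, ordered by pooled signal from the top. Circles are summits, right-pointing triangles the member's TSS and left-pointing triangles the TSS of the head-to-head neighbour, not drawn for mRpL37; in 16 of the 20 shared peaks the summit lies between them.

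Sequence around the summits was searched for 10 motifs on both strands, 50 bp to each side. The core CGATA, bound by the insulator protein BEAF-32 and held within the DNA replication-related element (DRE) TATCGATA, lay at 5 of 22 member peaks (22.7%), against 24.5% of 1665 promoter IDR peaks of other genes and 21.8% of 6889 promoter candidates outside the IDR set. TATAAA lay at 3 (13.6%), against 17.5% of other promoter IDR peaks, and the initiator core TCAGT at 2 (9.09%), against 17.5%. GAGAG lay at 1 (4.55%), against 9.79%. GGTCACACT, the M1BP element, CATCNCTA, core promoter motif 7, and the ETS core CCGGAA lay at 1 peak each, against 1.8%, 3.3% and 3.36% of other promoter IDR peaks. The DRE, the NRF-1 core GCGCATGC and the E-box CAGCTG lay at 0 of 22, where 3 peaks would be 13.6%. They lay at 4.68%, 0.0601% and 6.13% of other promoter IDR peaks. Within 100 bp of the summit, the E-box lay at 5 of 22 member peaks (22.7%), against 13.2% of other promoter IDR peaks. No motif of this list was thus shared by most member peaks, and 12 of the 22 held none.

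Several member summits that held a listed motif are printed to show how varied they were, with the motif in capitals and the strand that of the member. Windows were shortened where needed to hold no transcribed bases. Capitals mark CCGGAA on both strands at mRpS2, the reverse complement of TATAAA at mRpS7, TCAGT at mRpL47 and mRpL4, and CGATA at mRpL4 and mRpL17. The mRpL17 summit also held an 8-mer described in the next paragraph.

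mRpS2, chr2L:4850557-4850640, minus strand: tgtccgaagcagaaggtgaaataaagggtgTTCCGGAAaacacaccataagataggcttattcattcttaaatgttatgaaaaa
mRpL47, chr3R:9515925-9516006, minus strand: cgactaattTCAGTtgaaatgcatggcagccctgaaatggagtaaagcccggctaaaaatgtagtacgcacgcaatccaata
mRpL4, chr2L:16329147-16329247, minus strand: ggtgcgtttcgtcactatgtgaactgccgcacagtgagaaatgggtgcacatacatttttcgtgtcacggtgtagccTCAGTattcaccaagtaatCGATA
mRpS7, chr2L:10386475-10386575, plus strand: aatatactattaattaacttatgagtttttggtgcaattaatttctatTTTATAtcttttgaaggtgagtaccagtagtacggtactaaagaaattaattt
mRpL17, chr3L:264392-264492, plus strand: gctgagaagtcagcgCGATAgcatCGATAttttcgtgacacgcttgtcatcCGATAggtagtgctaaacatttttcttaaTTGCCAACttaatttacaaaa

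Sequences of 8 bases (8-mers) were then ranked without using member peaks. The 5 with the highest ratio of their share at promoter IDR peaks of other genes to that at promoter candidates outside the IDR set were GCCAACTA, AAGGGTAT, GTTGCCAA, GTTGGCAA and AAACCTTT. Of these, GCCAACTA had the highest ratio, with 1.38% of other promoter IDR peaks and 0.261% of candidates outside the set. Any of the 5 lay at 1 of 22 member peaks (4.55%), that of mRpL17, against 6.67% of other promoter IDR peaks and 2.1% of candidates outside the IDR set. Mean GC content within 50 bp of the summit was 34.5% (SD 9.9, n = 22 peaks) at members, 37% (SD 9.6) at other promoter IDR peaks and 41% (SD 9.9) at promoter candidates outside the set.

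The promoters themselves, from 250 bp before to 50 bp after the outermost TSS, often held the same short sequence. The palindromic E-box CAGCTG lay in 40 of 73 member promoters (54.8%), against 17.7% of all promoters. It lay in 12 of 20 called members (60%) and 28 of 53 uncalled members (52.8%), a difference that was not tested. By arrangement, 54.7% of head-to-head members held it, against 25.1% of all head-to-head genes, and 55% of members with no such neighbour, against 14.9% of all such genes. Within each arrangement, the share with an E-box was thus higher in members than in all genes. What this shared sequence has to do with CG4854 was not tested.

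The DRE lay in 15 member promoters (20.5%), against 9.37% of all promoters, and CGATA in 58.9%, against 47.5%. The M1BP element lay in 11.0%, against 6.05%, and motif 7 in 11.0%, against 6.43%. GAGAG was less frequent, in 16.4%, against 29.8%, as was TCAGT, in 38.4%, against 51.6%. TATAAA lay in 46.6%, against 45.9%, the ETS core in 4.11%, against 6.81%, and the NRF-1 core in 1.37%, against 1.05%. Among head-to-head genes alone, some of these differences ran the other way. There the DRE lay in 15.1% of members, against 17.4% of all genes, CGATA in 52.8%, against 62.4%, and motif 7 in 9.43%, against 12%. Among genes with no head-to-head neighbour, each of these was more frequent in members. In that arrangement the DRE lay in 35% of 20 members, against 6.33% of all genes, CGATA in 75%, against 41.8%, and motif 7 in 15%, against 4.32%.

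The E-box of members lay close to the start site. The first base of the E-box nearest the TSS had a median position of 4 bp (quartiles −17.8 and 16) over the 40 members that held it, against −45 bp over the 2467 promoters that held it among all genes. It was within 50 bp of the TSS in 35 of 73 members (47.9%), against 9.34% of all promoters. The 30 bp around it at 8 of the called members are shown because, of the 10 motifs, its share in member promoters differed most from that in all promoters. CAGCTG is in capitals, and the strand is that of the member.

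mRpL23, chr3L:2373715-2373744, minus strand: gtggttgacaatCAGCTGtttaaaacaagt
mRpL24, chr2L:4945324-4945353, minus strand: ttcagttctcaaCAGCTGattgcaagccgc
mRpS2, chr2L:4850413-4850442, minus strand: aacactacccacCAGCTGtttaccaaaatc
mRpL21, chr3L:19255067-19255096, minus strand: cgcatgctaacaCAGCTGttcgaaaacgcg
mRpL32, chr3R:31252844-31252873, plus strand: atatcgatagcaCAGCTGtttcctcttgcg
mRpL11, chr3R:14511821-14511850, plus strand: cagcaataccatCAGCTGttgctgcttctt
mRpL47, chr3R:9515873-9515902, minus strand: ttgttattgcttCAGCTGttttgttcggtc
mRpS24, chr3R:24163508-24163537, minus strand: cgtcacgtcaatCAGCTGttgctggacgca

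The E-boxes printed started between 28 bp before and 20 bp after the outermost TSS. Of these 8 promoters, 3 held 2 E-boxes, and the one not printed began at −237 bp at mRpL24, −248 bp at mRpL32 and −245 bp at mRpS2. The IDR summits of mRpS2, at −188 bp, and mRpL32, at −161 bp, were nearer to the upstream E-box than to those at −11 and −16 bp. The mRpL24 summit, at −104 bp, was nearer to the E-box at 20 bp. These upstream E-boxes lay near the neighbour's TSS, which was 218 bp upstream of mRpL24, 264 bp upstream of mRpL32 and 222 bp upstream of mRpS2. At mRpS24, with 1 E-box, the summit lay 232 bp upstream and the E-box began 20 bp downstream. At mRpL47, also with 1, they were 67 bp upstream and 18 bp downstream. A match to these letters is a description of the sequence and does not show that a factor binds there.

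**Figure D5:**
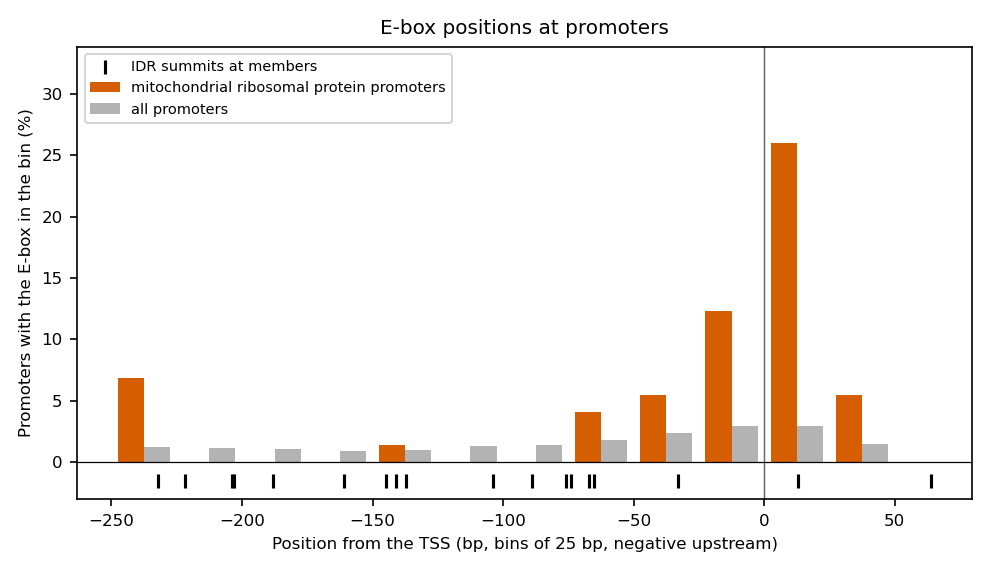
Share of promoters, in percent, with an E-box starting in each 25-bp bin from 250 bp before to 50 bp after the TSS, for members (left bar) and all protein-coding genes (right bar). Ticks under the axis mark IDR summits at members within the plotted range; the E-box reaches 26% of member promoters in the bin that starts at the TSS, against 2.95% of all promoters, while most summits lie upstream.

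Called members were unevenly spread over the chromosome arms. On 2L, 7 of 12 were called (58.3%, interval 27.7 to 84.8%), against 16.4% of all genes on that arm. On 2R, 3L and 3R together, 13 of 50 were called (26%), against 16.7% of all genes there. On X, 0 of 11 were called (interval 0 to 28.5%), against 11.7% of all X genes. All 11 X members had a candidate in at least 1 list, against 64.1% of all X genes. Both replicates held one at 3 of the 11 (27.3%, interval 6.02 to 61.0%), against 45.9% of all X genes, a share within that interval. With so few members an arm, no difference between arms was tested.

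Other genes of mitochondrial gene expression were taken from a list of 53 names, 48 of which matched. Of these, 7 were called (14.6%, interval 6.07 to 27.8%), close to the 15.8% of all genes, and 27 had a pooled candidate (56.2%). By class, 1 of 10 translation factors and 6 of 20 genes of transcription, replication and RNA were called (30%, interval 11.9 to 54.3%). Of 16 mitochondrial aminoacyl tRNA synthetase genes 0 were called (interval 0 to 20.6%). Neither of the ribosomal protein genes with other symbols, tko and bonsai, was called, and both had a candidate in replicate 3 alone.

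The strongest on that list was PNPase, the polynucleotide phosphorylase gene, with a pooled signal of 1217 (rank 8), 634 in replicate 2 and 586 in replicate 3. Next came SLIRP2, an RNA-binding protein gene, with 655.5 in the pooled list, 354 in replicate 2 and 303.5 in replicate 3, at a peak shared with Mkk4. PNPase thus ranked just above mRpS10, the strongest member, and SLIRP2 lay below mRpL23 and above mRpL27. The single-stranded DNA-binding protein gene mtSSB had 240.4 in the pooled list, 103 in replicate 2 and 146 in replicate 3.

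SLIRP1 had 169.9 in the pooled list, 119.8 in replicate 2 and 41.0 in replicate 3, and mRF1, a release factor gene, had 112, 56.9 and 45.4 in the same lists. PolG2, the accessory subunit gene of mitochondrial DNA polymerase, had 96.3 in the pooled list and 47.7 in replicate 3, with no candidate in replicate 2, and rswl had 95.6, with 38.6 in replicate 2 and 52.9 in replicate 3. SLIRP1 and mRF1 were thus within the range of the weaker called members, while PolG2 and rswl lay just below mRpS11, the weakest of them. Their peaks were shared with anox at SLIRP1, CG9426 at mRF1, GatC and Polr2C at PolG2 and Prp19 at rswl.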

How the data were processed

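ChIP-seq peak lists of 2 replicates and of their pooled data were used, on dm6. The authors deposited signal values per peak; the pooled and replicate lists hold 30000 candidates each, and per the text deposited with them both replicates share 1 control file. No aligner, peak caller, IDR threshold or read number is stated in the labels or files used, so depth per sample is unknown. Summits (start plus the deposited offset) were compared with TSSs of protein-coding transcripts of Ensembl release 115 (BDGP6 version 54). Python 3.11.15 with pandas 2.3.3, numpy 2.4.6 and scipy 1.17.1 was used. Shares have exact intervals, zero motif counts the share of 3 counts, and no test was made, because there is 1 group. The members, lists and motifs were chosen with earlier results of these data known. Genes named were all called members, the 5 strongest below the IDR set, members with no candidate, called genes of the pathway list and the neighbours of member peaks, 1 of which is not reported here; the sequences of the 2 strongest peaks and of the E-boxes were chosen after values were seen. Counting was tested on simulated data. Alternatives changed the window, the TSS, the assignment of peaks, the peak set and the replicates. The lists on dm3 were not used.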

Additional observations from a re-analysis of the deposited data

How the results depend on the processing

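The count of called members was 20, and it moved most with how a peak is given to a gene. It was 12 (16.4% of members, against 9.49% of all genes) where the peak itself had to overlap a TSS, and 8 (11.0%, against 11.6%) where a peak went only to the nearest TSS. It was 11 (15.1%, against 8.79%) with only IDR peaks above the median signal of the set. With the window at 250 bp it was 18 (24.7%, against 13.0%), without mRpL17 and mRpS23. It was 20 (27.4%) with 1000 bp, against 18.3% of all genes, and with the outermost TSS only, against 14.0%. To leave out a replicate, the strongest 3106 entries of the other replicate's list stood in for the IDR set, which gave 18 to 25 called members. Replicate 3 alone gave 18 (24.7%, against 15.3%), without mRpL34, mRpL51, mRpS11 and mRpS24 and with mRpL13 and mRpL18, and replicate 2 alone gave 25 (34.2%, against 16.5%), without mRpS11 and with mRpL13, mRpL19, mRpL20, mRpL54, mRpS22 and mRpS31. In all settings run, 5 members were called: mRpL23, mRpL24, mRpL37, mRpL41 and mRpL53. For the other mitochondrial gene expression genes the count of 7 became 4 with those stronger peaks and 5 to 6 without a replicate. CGATA or the DRE at member summits counted 5 peaks within 50 bp, 2 within 25 bp and 9 within 100 bp. The E-box counted 0 peaks within 25 and 50 bp and 5 within 100 bp. At members, the median log2 ratio between replicates 3 and 2, −0.17, was −0.04 with the 250-bp window and −0.22 with signals divided by each list's median. With the canonical TSS in place of the outermost one, the E-box lay in 40 member promoters, as in the report; this alternative, the E-box windows and the 1000-bp distance for head-to-head genes were chosen after seeing the data. No paired analysis was possible because there is 1 group. Read depth is unknown, so a promoter without a candidate cannot be told apart from one below detection.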
